A study of Homo sapiens with 3 samples.

Results

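Box C/D small nucleolar RNAs (snoRNAs) were followed to both ends in 3 small RNA libraries of HEK293 cells, through the reads that cover nearly the whole RNA. Each deposited record gives a snoRNA entry, the first and last position of a read within that entry, the read's length and the number of reads. Near full-length records were chosen by these measured positions: last minus first position plus 1 had to be at least 90% of the highest position seen for that entry in any library. Of 21296 records with 51039 reads on all snoRNA classes, 8950 records with 31040 reads met this rule. They fell on 135 of the 146 box C/D entries that had a read on the snoRNA's own strand. The positions, spans and everything derived from them were used in the choice and are given as a description, with no test.

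HEK293 is an established human embryonic kidney line, grown here in DMEM medium with foetal bovine serum, penicillin and streptomycin. The labels name no treatment, and all 3 libraries form 1 group with no second group to compare it with. Libraries 1, 2 and 3 held 13024, 6383 and 11633 near full-length reads on 129, 118 and 129 entries, and the numbers follow deposition order only. Nothing in the labels ties a library to a culture of its own, and the spread between libraries may be technical.

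Box C/D snoRNAs guide 2′-O-methylation of ribosomal and spliceosomal RNA by base pairing. Box C near the 5′ end and box D near the 3′ end are brought together by a short terminal stem and bound by SNU13, NOP56, NOP58 and the methyltransferase fibrillarin. Most human members lie in introns of host genes; after splicing, exonucleases trim the excised intron from both ends until they reach the assembled particle. A few, among them U3, SNORD118 (U8) and SNORD13 (U13), have their own promoters and a cap.

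The ends are easiest to see against these boxes. The deposited files hold no sequence, so letters were read from GENCODE 29 transcripts on GRCh38 and only where the transcript was as long as the entry's highest position. This held for 30 of the 81 entries that had at least 10 near full-length reads in every library. An equal length does not prove that the authors counted positions from the same base. The search took box C as TGATGA in the first 25 bases and box D as CTGA in the last 25, on the strand of the snoRNA. CTGA was present in all 30 and TGATGA in 19. Of 266 annotated box C/D transcripts of 60 to 160 nt, 72.2% held TGATGA and 96.2% held CTGA in these windows. For 138 annotated box H/ACA transcripts of the same length, a class without these boxes, the shares were 0.725% and 13.04%.

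The first set shows dominant isoforms that ended 2 bases after box D. A dominant isoform is the pair of first and last positions with the most near full-length reads of an entry, summed over libraries. Sequences run 5′ to 3′, with the matches to TGATGA and CTGA in capitals.
SNORD27: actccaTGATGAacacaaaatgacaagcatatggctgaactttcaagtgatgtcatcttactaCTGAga
SNORD73A: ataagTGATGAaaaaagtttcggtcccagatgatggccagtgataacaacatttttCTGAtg
SNORD30: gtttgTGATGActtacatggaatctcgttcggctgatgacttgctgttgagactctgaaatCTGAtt
SNORD49A: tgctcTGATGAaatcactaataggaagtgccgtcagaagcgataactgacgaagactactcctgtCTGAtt
SNORD100: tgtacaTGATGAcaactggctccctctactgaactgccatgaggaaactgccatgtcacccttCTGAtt

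The second set shows dominant isoforms that ran 4 or 5 bases past box D. SNORD24, SNORD63 and SNORD42B have other letters at box C, which are therefore not in capitals.
SNORD83B: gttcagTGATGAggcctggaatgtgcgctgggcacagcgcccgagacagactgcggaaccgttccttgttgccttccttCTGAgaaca
SNORD102: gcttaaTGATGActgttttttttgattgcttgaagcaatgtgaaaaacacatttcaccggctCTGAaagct
SNORD58A: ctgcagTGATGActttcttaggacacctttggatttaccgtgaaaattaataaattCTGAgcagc
SNORD20: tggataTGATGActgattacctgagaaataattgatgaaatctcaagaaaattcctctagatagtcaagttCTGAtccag
SNORD24: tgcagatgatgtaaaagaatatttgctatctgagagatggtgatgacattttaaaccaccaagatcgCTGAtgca
SNORD63: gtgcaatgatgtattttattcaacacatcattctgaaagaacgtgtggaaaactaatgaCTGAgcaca
SNORD42B: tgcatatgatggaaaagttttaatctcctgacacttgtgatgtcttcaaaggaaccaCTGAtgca

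In GENCODE 29 these isoforms lie inside host genes on the same strand. SNORD73A lies at chr4:151103828-151103889 (plus strand) in RPS3A, and SNORD100 at chr6:132816804-132816872 (plus) in RPS12. Both SNORD27, at chr11:62855015-62855083 (minus), and SNORD30, at chr11:62853666-62853732 (minus), lie in the non-coding host gene SNHG1. SNORD49A lies at chr17:16440036-16440106 (plus) in LRRC75A-AS1. SNORD83B lies at chr22:39313821-39313908 (minus) in RPL3, SNORD102 at chr13:27255065-27255135 (plus) in RPL21, and SNORD58A at chr18:49491283-49491347 (minus) in RPL17. SNORD20 lies at chr2:231456444-231456523 (minus) in NCL, which encodes nucleolin, and SNORD24 at chr9:133349396-133349470 (plus) in RPL7A. SNORD63 lies at chr5:138561043-138561110 (minus) in HSPA9, and SNORD42B at chr17:28720551-28720615 (plus) in RPL23A. The loci of SNORD30, SNORD100, SNORD20, SNORD63 and SNORD42B were intronic in every host transcript that spans them. At SNORD27 an exon of 4 of the 23 spanning SNHG1 transcripts overlapped the locus.

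Dominant isoforms began at a nearly fixed distance from box C. In 12 of the 19 entries with TGATGA, 6 bases preceded it, in 4 entries 5 did, and SNORD61, SNORD65 and SNORD48 had 4, 3 and 2. SNORD48, a common reference in small RNA qPCR, has overlapping copies of the motif, and the first was used. Where the annotated transcript began upstream of the dominant isoform, in 7 of the 19 entries, 6 isoforms began 6 bases before box C and 1 began 5 before it. Counted over reads of these 19 entries, 57.7% ± 0.54 (SD, n = 3 libraries) began 6 bases before box C and 33.5% ± 0.30 began 5 before it. Only 1.15% ± 0.29 began 7 bases before it. A start there was possible only in the 6 entries whose annotation began upstream of an isoform 6 bases before box C. In the others position 1 lay at most 6 bases before box C, so this low share was largely set by the edges of the entries. SNORD100 is counted at 6 in these tallies, by its near full-length isoform 3–71. Its commonest read of any span, 4–71, began 5 bases before box C, with 316, 195 and 249 reads in libraries 1, 2 and 3. That read was left out by the span limit. The place of SNORD100 at 6, and the reads it adds there, hold only inside the limit.

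On the 3′ side the distances fell into separate classes. Of 30 entries, 9 ended 2 bases after box D, 11 ended 4 after it and 10 ended 5 after it, while 0 ended 3 after it. Where the annotation reached beyond the isoform, in 14 entries, 5 ended at 2, 5 at 4 and 4 at 5. SNORD72 is counted at 4 in each of these tallies, by its near full-length isoform 5–76. Its commonest read of any span was 5–74, with 29, 44 and 44 reads in libraries 1, 2 and 3. That read ended 2 bases after box D and was left out by the span limit, which 95 of 376 SNORD72 reads met. The place of SNORD72 at 4 therefore holds only for reads inside the limit. Of the reads, 42.5% ± 1.0 ended 2 bases after box D, 5.48% ± 0.79 ended 3 after it, 25.5% ± 1.3 ended 4 after it and 23.2% ± 1.8 ended 5 after it (SD, n = 3). With each entry weighted equally the shares at 2, 3, 4 and 5 bases were 31.0%, 4.65%, 32.7% and 27.3%. Within single entries the low value at 3 was less general. Summed over libraries, 8 of the 30 entries had fewer reads at 3 bases than at 2 and than at 4, 9 had fewer only than at 2, and 13 had fewer only than at 4. In SNORD49A, SNORD48, SNORD65 and SNORD37, all among the 9, the entry itself ended 2 bases after box D. No read of theirs could end at 3 or 4, and their reads also enter the shares given above. SNORD72, among the 13, had 0 counted reads at 2 and at 3 bases, partly because its commonest read was left out. For SNORD102, one of the 8, 62, 10 and 38 reads of libraries 1, 2 and 3 ended 2 bases after box D, 2, 0 and 3 reads ended 3 after it, 25, 6 and 15 ended 4 after it, and 151, 58 and 86 ended 5 after it. In 76.7% of its near full-length reads, pooled over libraries, the read's length differed from its span. Over all near full-length reads the mean of the libraries was 20.2%. For SNORD98, 68, 61 and 61 reads ended at 2 bases, 4, 5 and 5 at 3 bases, and 145, 126 and 157 at 4 bases. These 2 snoRNAs, chosen after their values were seen, were in the first class. SNORD24 was not, with 20, 3 and 9 reads at 2 bases, 23, 10 and 14 at 3 bases and 409, 163 and 270 at 4 bases.

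**Figure D1:**
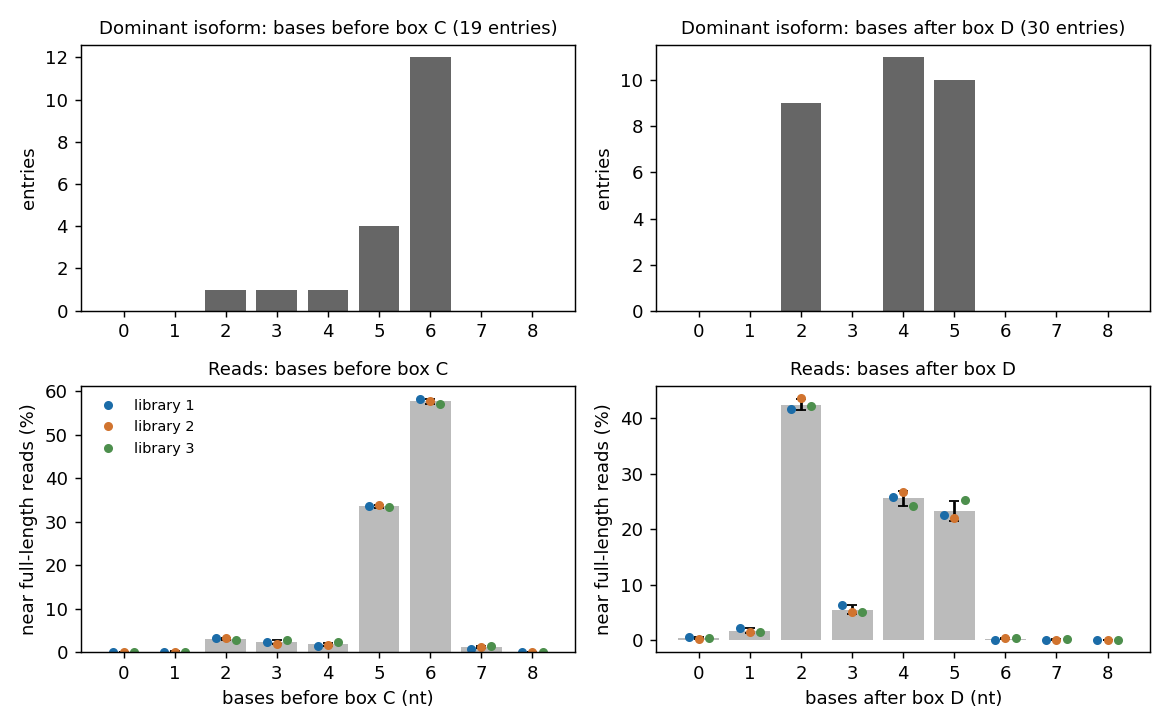
Distance from box C to the first position (left) and from box D to the last position (right), in bases. Upper panels count entries by their dominant isoform; lower panels give the percent of near full-length reads of these entries in each library (points), with the mean and SD over 3 libraries (bars). Starts gather at 5 and 6 bases, and ends at 2, 4 and 5 bases with a low value at 3.

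The 2 ends went together in the entries that have both boxes. All 4 isoforms that began 5 bases before box C ended 2 bases after box D. In SNORD49A, SNORD30 and SNORD37 the entry itself began 5 bases before box C, so no earlier start was possible. SNORD49A and SNORD37 also ended as entries 2 bases after box D. Of the 4, only SNORD73A had room at both ends, so this pattern partly restates the edges of the entries. Of the 12 that began 6 before box C, 9 ended 4 or 5 after box D and 3 ended 2 after it, SNORD27 and SNORD100 among them. The commonest SNORD100 read of any span began 5 before box C and ended 2 after box D, and was left out by the span limit. Searching for the shorter TGATG instead, which was added after the data were seen, gave 28 entries: 20 began 6 before it and 5 began 5 before it. With 6 bases before it, 17 ended 4 or 5 after box D and 3 ended 2 after it; with 5 bases, 1 and 4 did. SNORD72 is among the 17, although its commonest read of any span ended 2 after box D. The bases flanking the boxes were then set against each other as a terminal stem, leaving out the 2 bases just before TGATGA, a register chosen after the sequences were seen. In the 10 entries that ended 4 or 5 after box D, 34 of 38 facing positions could pair, G with U included, and 8 entries paired at every one. In the 9 that ended 2 after it, 10 of 15 could pair and 5 entries paired at every position they had. SNORD48 had 0 facing positions and counts among those 5. No pairing share for unrelated bases was set beside these counts, and whether the classes differ in pairing was not tested.

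Over all near full-length reads, the 5′ end was more often complete than the 3′ end. Position 1 was the first position of 51.1%, 45.4% and 49.0% of reads in libraries 1, 2 and 3 (48.5% ± 2.8; SD, n = 3). The entry's highest position was the last position of 40.8%, 33.2% and 42.0% (38.7% ± 4.8). Both edges were reached by 28.7% ± 3.7. At the 5′ end 21.6% ± 1.2 of reads lacked 1 base and 18.5% ± 1.9 lacked 2, so that 88.5% ± 1.8 lacked at most 2. Losses at the 3′ end spread further: 13.2% ± 0.63 lacked 1 base, 19.7% ± 3.3 lacked 2, 13.8% ± 1.0 lacked 3 and 10.2% ± 0.25 lacked 4. A loss of 3 or more bases was found at the 3′ end of 28.5% ± 1.3 of reads and at the 5′ end of 11.5% ± 1.8. The greatest loss that the rule admitted was 11 bases at the 5′ end and 13 at the 3′ end. The mean loss was 0.96, 1.06 and 1.06 bases at the 5′ end and 1.52, 1.71 and 1.51 at the 3′ end.

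**Figure D2:**
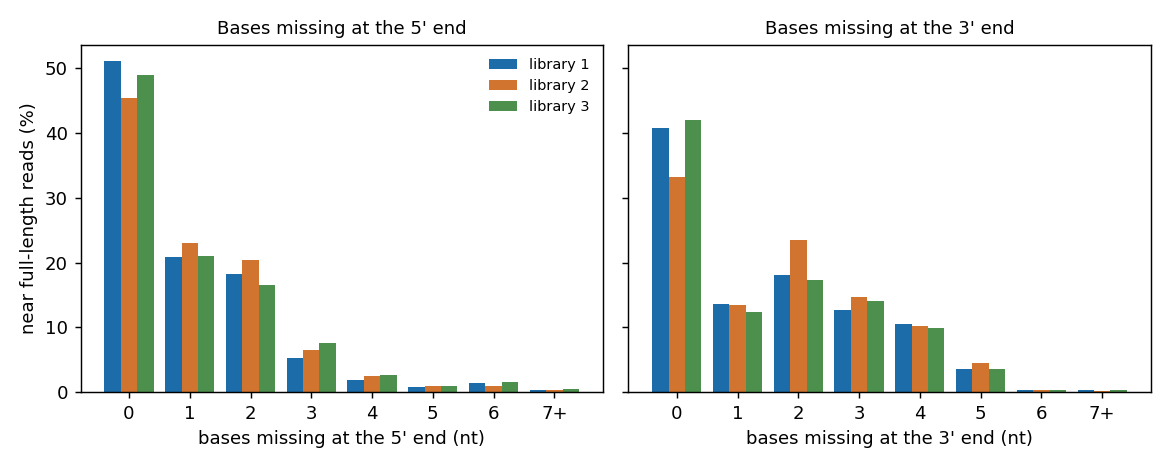
Percent of near full-length reads (vertical axis) that lack 0 to 6, or 7 and more, bases at the 5′ end (left) and at the 3′ end (right), for each of the 3 libraries. At the 5′ end 88.5% of reads lack at most 2 bases; at the 3′ end 28.5% lack 3 or more.

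A base counted as missing depends on the highest position, and that position rested on few reads in many entries. Among the 81 entries, it was reached by 1 read in 10 and by fewer than 10 reads in 25. SNORD80 is one of these: 1 read reached position 78, while 89.1%, 89.3% and 94.8% of near full-length reads in libraries 1, 2 and 3 ended at 74. SNORD24 is the other case: 882 reads reached its highest position, 75. That position decides which reads were counted, but the distance of a read from the other reads of its entry does not use it. Set against the dominant isoform of their entry, 69.5% ± 0.45 of reads had both ends the same, 10.1% ± 0.92 differed at the 5′ end only, 16.8% ± 0.65 at the 3′ end only and 3.69% ± 0.25 at both (SD, n = 3; reads of the 81 entries). The first position lay within 1 base of the dominant one in 97.9% ± 0.41 of reads and the last position in 91.8% ± 0.25. Shifts by 1 base went inward more often than outward, with 8.01% ± 0.26 of first positions 1 base later and 3.65% ± 0.77 1 base earlier. Last positions were 1 base earlier in 8.04% ± 0.44 and 1 base later in 4.26% ± 0.44. However, the dominant isoform began at position 1 in 42 of the 81 entries and ended at the highest position in 43. At those ends no read could shift outward, so the excess of inward shifts is partly set by the edges of the entries.

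Within an entry, first positions were more uniform than last positions. The commonest first position held a median over the 81 entries of 90.9%, 92.2% and 90.6% of reads in libraries 1, 2 and 3, and the commonest last position 84.0%, 83.3% and 84.97%. In 37 entries the first position had the larger share in all 3 libraries, and in 14 the last position did. SNORD42B, from an intron of the ribosomal protein gene RPL23A, shows the wider 3′ spread. Its first position 2 held 85.4%, 85.3% and 77.8% of reads, while its commonest last position held 39.97%, 45.7% and 35.8%. Isoform 2–66 had 205, 104 and 98 of its 588, 258 and 316 reads, and isoform 2–67 had 165, 62 and 70. Position 66 was ahead of 67 in every library. SNORD46 shows the reverse: 95.8%, 92.2% and 95.1% of reads shared the last position, 98, and 62.9%, 52.9% and 59.9% shared the commonest first position.

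The dominant isoform was the same in all 3 libraries in 71 of the 81 entries, and in 43 of the 47 with at least 30 reads in every library. The dominant isoforms of the 3 libraries shared their first position in 77 entries and their last position in 74. Pairs of libraries had the same dominant isoform in 73 (1 and 2), 75 (1 and 3) and 74 entries (2 and 3). The overlap of 2 libraries, the sum over isoforms of the smaller share, had medians of 87.5%, 88.2% and 85.8%. Its lowest value was 49.5%, between libraries 2 and 3. Ties for the dominant isoform occurred in 2 of 243 entry and library pairs. The dominant isoform took a median of 72.7%, 72.0% and 71.2% of an entry's near full-length reads. It exceeded 50% in every library in 61 entries, 80% in 23 and 90% in 6, and stayed below 50% in every library in 7.

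**Figure D3:**
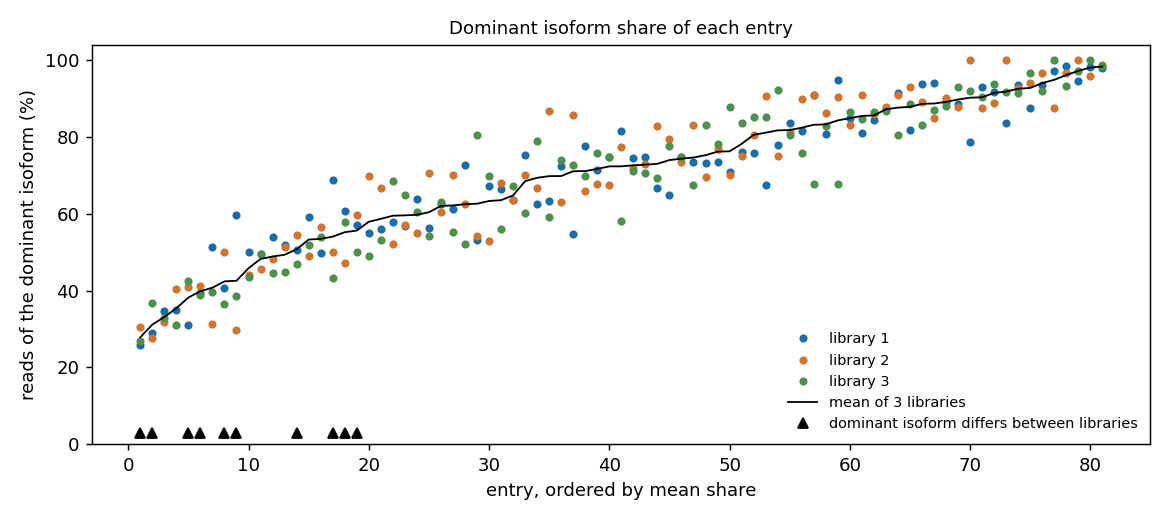
Percent of near full-length reads held by the dominant isoform (vertical axis) in 81 entries, ordered by their mean over 3 libraries (line), with 1 point per library. Triangles mark the 10 entries whose dominant isoform differed between libraries; the highest mean among these is 55.6%.

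Among the 81 dominant isoforms, 32 spanned the whole entry, 10 began at position 1 without reaching the highest position, 11 reached the highest position only and 28 touched neither. A whole entry here runs from position 1 to the highest position seen, which equalled an annotated length in 30 of the 81 entries. Elsewhere the annotated transcript was longer, as in SNORD32A (84 nt against 77), or shorter, or none was found. Spanning the entry therefore does not show a complete snoRNA. At the 5′ end 42 lacked 0 bases, 15 lacked 1, 10 lacked 2 and 14 more lacked 3 to 8. At the 3′ end 43 lacked 0 bases, 12 lacked 1, 13 lacked 2, 8 lacked 3, 4 lacked 4 and 1 lacked 5. Isoform lengths ran from 48 to 126 nt with a median of 69. The shortest, SNORD49B at 48 nt, belongs to an entry whose highest position seen was 48, while its annotated transcript was 72 nt. Its reads count as near full-length only against that highest position.

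The 10 entries with the most near full-length reads held 35.6% of them, and all 10 had the same dominant isoform in every library. SNORD31, one of the snoRNAs hosted by SNHG1, had isoform 3–67 with 692 of 891, 211 of 320 and 315 of 452 reads in libraries 1, 2 and 3 (71.1% ± 6.0; SD, n = 3). A start 1 base later, 4–67, came next with 128, 73 and 69 reads. SNORD2 had isoform 3–68 with 415 of 551, 301 of 430 and 200 of 333 reads, and its second isoform kept the start and ended 3 bases earlier, at 65, with 55, 57 and 59 reads. The share of the dominant form was thus lowest in library 3, at 60.1% against 75.3% and 70.0%.

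SNORD44, hosted by GAS5 and used as a qPCR reference, had isoform 1–61 with 248 of 419, 172 of 352 and 180 of 348 reads. Isoform 2–61 followed with 90, 100 and 87. SNORD80, also in GAS5, had isoform 3–74 with 191 of 294, 185 of 233 and 403 of 520 reads, and library 1 had the lowest share, 65.0%. SNORD27 had isoform 1–69 with 325 of 443, 137 of 165 and 199 of 295. In both SNORD44 and SNORD27 the second isoform began 1 base later and kept the last position.

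SNORD45A and SNORD24 were the 2 of these 10 entries whose dominant isoform spanned the whole entry. For SNORD45A, isoform 1–83 had 375 of 600, 95 of 157 and 186 of 295 reads, and 1–82 had 122, 28 and 52. For SNORD24, isoform 1–75 had 387 of 479, 161 of 187 and 251 of 303 reads (83.2% ± 2.7; SD, n = 3). SNORD58C had isoform 1–63 with 201 of 269, 219 of 298 and 160 of 214 reads; its shares of 74.7%, 73.5% and 74.8% differed little between libraries.

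Ends were most uniform in SNORD100, SNORD32A, SNORD52, SNORD96A and SNORD49A among entries with at least 30 reads in every library. SNORD32A, hosted by RPL13A, had isoform 1–77 with 125 of 127, 59 of 61 and 217 of 233 reads. SNORD52 had isoform 1–64 with 156 of 167, 58 of 60 and 125 of 136. SNORD96A had isoform 1–72 with 258 of 276, 50 of 54 and 172 of 188. SNORD49A had isoform 1–71 with 251 of 282, 64 of 71 and 171 of 194 reads. Each of these 4 dominant isoforms ran from position 1 to the highest position seen for its entry. For SNORD49A that position equalled the annotated length. The annotated transcripts of SNORD32A, SNORD52 and SNORD96A were longer, at 84, 67 and 79 nt. SNORD100 came first, at 98.3% ± 0.35 (SD, n = 3), but its value was set by the 90% limit, as described further on.

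The lowest dominant shares were those of SNORD82, SNORD79, SNORD42B, the entry HBII_95B and SNORD4A. SNORD82 had 21 reads of isoform 5–72 among 81 in library 1 and 24 among 89 in library 3, while in library 2 isoform 5–70 led with 15 of 49. SNORD79, hosted by GAS5, had isoform 4–83 with 27 of 78, 14 of 44 and 49 of 149 reads, followed by 4–80 with 11, 10 and 37. SNORD4A had isoform 3–71 with 55 of 110, 22 of 50 and 46 of 106 reads, followed by 3–70 with 35, 17 and 24. In HBII_95B isoform 4–88 led in libraries 1 and 3 with 19 of 61 and 25 of 59, and 4–87 in library 2 with 16 of 39. In all 4 the leading near full-length isoforms shared their first position and differed at the 3′ end. In 3 of them the 90% limit left out the commonest read, which began 1 base later: 6–69 of SNORD82 with 31, 63 and 45 reads, 5–80 of SNORD79 with 22, 16 and 66, and 5–84 of HBII_95B with 20, 11 and 37. The shares and the shared start of these 3 therefore hold only for reads inside the limit.

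The 10 entries whose dominant isoform differed between libraries were SNORD46, mgh28S_2409, SNORD82, HBII_95B, SNORD104, SNORD92, SNORD77, SNORD67, SNORD36C and SNORD1A, of which the last 5 are named to complete the count. In 6 of them the 3 dominant isoforms shared the first position and in 3 the last. SNORD46 had isoform 1–98 with 186 of 307, 22 of 51 and 143 of 247 reads and isoform 2–98 with 101, 24 and 69, so library 2 differed by 2 reads. The entry mgh28S_2409 had isoform 3–70 with 75, 31 and 75 reads and isoform 2–70 with 57, 42 and 78. SNORD104 started at 4 in every library and ended at 77 in library 1, at 75 in library 2 and at 76 in library 3, on 26 of 64, 9 of 18 and 19 of 52 reads.

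The dominant isoforms furthest from the 5′ edge were 9–81 of SNORD70, 7–87 of SNORD91A, 7–75 of SNORD121B, 5–72 of SNORD82 and 5–76 of SNORD72. SNORD81 and SNORD1A also lacked 4 bases there, as many as SNORD82 and SNORD72. SNORD70 had 34 of 36, 13 of 13 and 33 of 34 reads on its isoform, which lacked 8 bases of the entry. SNORD91A had 58 of 86, 29 of 32 and 69 of 81 reads, with 98.8%, 96.9% and 98.8% at first position 7. SNORD121B had 14 of 16, 16 of 17 and 28 of 29. The commonest first position thus held a mean of 97.2%, 98.2% and 94.8% of reads in SNORD70, SNORD91A and SNORD121B, and 98.8% in SNORD49A, which starts at position 1. In SNORD70 and SNORD121B the isoform spanned only 90.1% and 90.8% of the highest position. The 90% limit therefore left out the same isoform with 1 base less, and 83 of 150 and 62 of 120 reads met it. The uniform starts of these 2 were thus set in part by the limit. Furthest from the 3′ edge were SNORD100 with 5 bases missing and SNORD31, SNORD80, SNORD74 and SNORD72 with 4 each. SNORD74, hosted by GAS5, had isoform 2–68 of 72 positions with 66 of 81, 58 of 75 and 57 of 98 reads.

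The 90% limit itself shaped these values, as the entries on either side of it show. Of 139 entries with at least 10 reads of any span, the commonest read lay inside the limit in 110 and outside in 29. In 19 of the 29 it spanned 80% to 90% of the highest position, and in 16 of these 19 that position was reached by at most 5 reads, against 26 of the 110 inside. These 19 entries held 6245 reads, of which 1368 were near full-length. The nearest outside was SNORD12, whose commonest read, 7–86, spanned 89.9%, and the nearest inside was SNORD70 at 90.1%. In SNORD100 the commonest read was 4–71, with 316, 195 and 249 reads and 89.5% of the highest position, 76, which 1 read reached. It was left out, while 3–71, 1 base longer at the 5′ end, was kept with 237, 145 and 176 reads. SNORD69 had 2 near full-length reads among 1172, since its commonest read, 9–69 with 286, 158 and 166 reads, spanned 79.2%. SNORD4B had 9 among 804, its commonest read being 5–68 with 163, 67 and 123 reads. By the annotated sequence, both 4–71 of SNORD100 and 9–69 of SNORD69 began 5 bases before box C and ended 2 after box D.

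**Figure D4:**
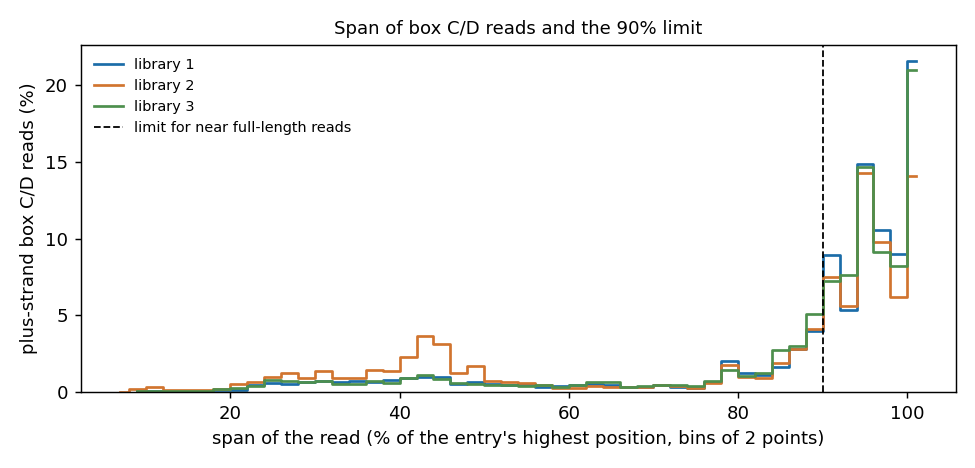
Span of box C/D reads as a percent of the entry's highest position (horizontal axis, bins of 2 points) against the percent of reads in each library. The dashed line is the 90% limit; 70.2%, 57.5% and 67.7% of box C/D reads of libraries 1, 2 and 3 lie at or above it, and library 2 has more reads near 40% to 46%.

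Library 2 stood apart in how many of its reads were near full-length and in how many reached the edges. Of 18540, 11096 and 17179 box C/D reads, 70.2% (exact 95% binomial interval 69.6% to 70.9%), 57.5% (56.6% to 58.4%) and 67.7% (67.0% to 68.4%) met the rule; these intervals cover counting error only, since the reads carry no molecular identifiers. Both edges were reached by 30.7%, 24.5% and 30.9% of near full-length reads. In entries of up to 80 nt the share was 71.9%, 59.97% and 70.8%, and in entries of 81 to 100 nt 65.9%, 46.8% and 58.6%. Reads whose length differs from their span, read here as gapped alignments, were 21.2%, 18.6% and 20.8% of near full-length reads and 28.3%, 15.7% and 27.2% of the other box C/D reads. The log2 ratio was -0.42, 0.25 and -0.39, with a mean of -0.19 ± 0.38 (SD, n = 3), and is given with no test because the span enters both measures. Library 2 went the other way from libraries 1 and 3. Near full-length reads that reached the highest position but not position 1 were gapped in 28.7%, 28.0% and 28.4%, and those that reached neither edge in 21.5%, 17.3% and 19.4%.

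Groups of snoRNAs with a shared host or role are given beside all 81 entries, where 71 had the same dominant isoform and the median over entries of the mean dominant share was 72.3%. All 10 snoRNAs hosted by GAS5 had at least 10 reads in every library; 9 had the same dominant isoform, with a median share of 73.1%. Among these, SNORD78 had isoform 2–63 with 266 of 326, 177 of 197 and 156 of 206 reads, and SNORD75 had isoform 1–60 with 103 of 110, 145 of 163 and 138 of 166. Of 8 snoRNAs in SNHG1, 7 met the minimum and all 7 had the same dominant isoform, with a median share of 71.1% and a median of 3 bases missing at the 3′ end, against 0 over the 81 entries and 1.5 in GAS5. The highest positions of SNORD31, SNORD27 and SNORD30 rested on 3, 3 and 2 reads. SNORD30 had isoform 1–67 with 140 of 173, 89 of 98 and 192 of 227 reads, and SNORD29 isoform 1–62 with 33 of 57, 26 of 50 and 87 of 127. Of 12 snoRNAs used as small RNA qPCR references, 11 met the minimum and all 11 had the same dominant isoform, with a median share of 83.2%. In RPL13A, SNORD32A and SNORD34 met the minimum; SNORD34 had isoform 1–66 with 204 of 307, 68 of 100 and 87 of 155 reads. The other two, SNORD35A and SNORD33, had 81 and 70 near full-length reads in all. Among snoRNAs that act in pre-rRNA processing, SNORD22 had isoform 1–126 with 34 of 47, 12 of 19 and 51 of 69 reads. SNORD14A and SNORD14B had 15 and 19 near full-length reads in all.

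The snoRNAs with their own promoter and cap gave 0 near full-length reads among 629 reads (208, 138 and 283 per library). Pooled over libraries and entries and treated as independent, these reads allow a share of up to 0.477%. The longest span on SNORD118 was 114 of 136 positions, on SNORD13 88 of 104 and on U3 185 of 217. These are 83.8%, 84.6% and 85.3% of the highest position. Their reads rarely began at positions 1 to 3: the shares were 0.948% for SNORD118, 0% of 151 reads for SNORD13 and 0.760% for U3, against a median of 82.4% over 136 other entries with at least 10 reads. The longest reads were 204, 157 and 174 nt, and in libraries 2 and 3 these lie below the 195.3 nt that the limit requires of U3. In the 13 entries over 100 nt that lack a promoter of their own, 77.5%, 61.0% and 79.8% of reads were near full-length. Of the 146 entries, 11 had 0 near full-length reads. Outside the own-promoter group these included SNORD90 (195 reads), SNORD121A (173), SNORD17 (44) and SNORD125 (12). Their commonest reads began at positions 14, 12, 1 and 14. Neither the 0 nor the late starts were therefore particular to the own-promoter group. Whether a cap has any part in the values of that group was not tested.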

How the data were processed

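Small RNA of HEK293 cells was sequenced in 3 libraries, made with an Ion Total RNA-Seq kit after bead purification, per the labels' protocols. The deposited files give raw read counts per distinct record, per the file headers, with positions counted from 1 within each entry as the other values in the deposited files. GRCh38.p10 is the build that the submitters' processing notes name. Aligner, trimming and read filtering were not given in the sources used here. Of a second deposited table, 3 columns of per-sample values were not used.

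The members and lists were chosen with earlier results of these data known. Entry length was the highest position seen on a plus-strand record in any library; opposite-strand records were left out. Shares were computed per library and averaged with equal weight; shares per entry needed 10 near full-length reads in every library (81 entries, 95.1% of those reads). No fit across genes was made, and a planned sign-flip test of gapped reads is not reported, since it uses the span that chose the reads. Names came from a RefSeq gene table (GRCh38.p14, names only): 127 entries matched a symbol or synonym, 11 a class prefix and number, and 9 kept the file's name. Named entries were the 10 with most near full-length reads; the 5 with the highest and 5 with the lowest dominant share among those with at least 30 reads in every library; the 5 missing most bases at each end; up to 5 that differed between libraries; all own-promoter entries; and up to 4 per list. 1 entry that this rule names is not reported here. SNORD12, SNORD69, SNORD4B, SNORD98, SNORD102, SNORD20, SNORD58A, SNORD61, SNORD63, SNORD65, SNORD48, SNORD37, SNORD73A, SNORD83B, SNORD49B, SNORD90, SNORD121A, SNORD17 and SNORD125 were chosen after their values were seen. The dominant-isoform code was tested on simulated data. Software was SciPy 1.17.1, NumPy 2.4.6, pandas 2.3.3 and matplotlib 3.10.9 under Python 3.11.15.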

Additional observations from a re-analysis of the deposited data

Results flagged for a closer look

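Box C/D records whose last position lay before the first were read as hits on the opposite strand and entered no comparison. They held 8, 5 and 11 reads in libraries 1, 2 and 3, above the 3 reads that a count of 0 allows. SNORD20 had 6, 3 and 7 of these and SNORD116-10 had 1, 2 and 2; the others were single reads on SNORD57 in library 1 and on SNORD70 and SNORD110 in library 3.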

How the results depend on the processing

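Of 111 recomputed values, 72 moved by less than the SD over libraries (counts: by less than 1.5 times; the gapped-read ratio: kept its sign), 37 moved further and 2 reversed. At a span limit of 95%, 80% and with the length taken as the highest position on at least 2 reads, the mean loss was 0.375, 1.64 and 1.16 bases at the 5′ end (1.03 as reported) and 0.842, 2.18 and 1.36 at the 3′ end (1.58), and the median dominant share was 79.2%, 65.5% and 70.3% (72.0%). At 95% and 80% the near full-length share was 44.5% and 76.7% (65.2%), the commonest first position held 95.3% and 87.6% (91.2%), the commonest last position 87.5% and 80.6% (84.1%), and the median after box D was 3 and 3 bases (4). That median covers only entries with both boxes, 19 as reported. With annotated lengths the losses were 0.960 and 2.29 bases, the dominant share 73.2% and the last-position share 85.4%. Without gapped reads the near full-length share was 52.0%, the dominant share 73.3%, the first- and last-position shares 92.6% and 85.9%, and the median after box D 3. With each distinct record counted once the near full-length share was 47.6%, the 5′ loss 1.21, the dominant share 49.8%, the position shares 78.6% and 66.6%, and 43 of 58 entries had the same dominant isoform. With a minimum of 30 reads 43 of 47 did, the last-position share was 85.2% and the median after box D 2. A minimum of reads per entry does not enter the mean losses, the near full-length share or the gapped-read ratio. Under such settings these could not move, and they count among the 72 by construction. The log2 ratio of gapped reads turned to 0.065 at the 80% limit and to 0.63 with distinct records; the cause was not tested.

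Leaving out each library in turn gave a dominant share of 71.0% to 72.7%, a first-position share of 89.7% to 91.4%, a last-position share of 84.0% to 84.2%, losses of 1.01 to 1.06 and 1.52 to 1.61 bases, a near full-length share of 62.6% to 69.0%, 74 of 81, 89 of 98 and 74 of 82 entries with the same dominant isoform without libraries 1, 2 and 3 and a log2 gapped ratio of -0.40 to -0.07. That ratio was -0.40 without library 2 against -0.19 as reported. The pooled dominant isoform was kept in 80 of 81 entries with the length on at least 2 reads, in 79 of 81 without gapped reads, in 76 of 81 at 80%, where SNORD100, SNORD72, SNORD79, SNORD82 and HBII_95B changed, in 75 of the 76 present with annotated lengths, in 71 of 81 with distinct records and in 60 of the 76 present at 95%, where SNORD31, SNORD2, SNORD80 and SNORD83B were among the 16 that changed. At 80% the 20 entries with both boxes ended 2, 4 and 5 bases after box D in 10, 4 and 6, with 0 at 3. The median of 3 bases at this limit is thus the midpoint between 2 and 4, and not an end that entries had. No paired analysis was possible because there is no second group whose libraries could be paired with these 3. Depth limits entries with few reads: at 10 reads a dominant isoform can rest on a difference of 1 or 2 reads.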
